A study of Homo sapiens with 12 samples.

Results

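The cytosolic DNA sensing pathway was followed through 10 genes: the sensor and its adaptor (CGAS, STING1), the kinases and the transcription factor below them (TBK1, IKBKE, IRF3), an exonuclease and a hydrolase that limit the signal (TREX1, ENPP1), and further DNA sensors (IFI16, AIM2, ZBP1). They were taken by name from a table of raw counts for 61541 genes, and all 10 were found. The filter on low counts left 16768 genes for testing, among them 7 of the 10: CGAS, STING1, TBK1, IKBKE, IRF3, IFI16 and ENPP1. The remaining 3 are described by their counts.

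RNA was sequenced from A549, an established line from a human lung adenocarcinoma, at 14 days after transduction with Cas9 guides. Libraries labelled control carried a non-targeting guide (gNTC1, genotype NTC KO), and libraries labelled knockout carried a guide against TYMS (TS-KO), which encodes the thymidylate synthase needed for DNA synthesis. Both were cultured by themselves (lone) and in co-culture, giving 4 groups of 3 libraries, none of them treated. The series text names parental A549 as the cells grown with the co-cultured knockout, while the partner of the co-cultured control and any separation of partners before RNA isolation are not given in the sources used here. Neither is it given whether the knockout cells were a clone or a pool, or whether replicates were separate cultures, so p-values measure only the spread between these libraries. No library of partner cells alone was analysed. In bulk RNA, fewer cells that express a gene and less RNA of it per cell cannot be told apart.

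In this pathway the enzyme cGAS binds double-stranded DNA in the cytosol and makes the cyclic dinucleotide cGAMP. cGAMP binds STING in the membrane of the endoplasmic reticulum, STING moves to the Golgi, and there TBK1, or its relative IKKε, phosphorylates IRF3. IRF3 then switches on type I and type III interferon genes and a set of interferon-stimulated genes. TREX1 degrades cytosolic DNA and ENPP1 hydrolyses cGAMP outside the cell, so both act as brakes.

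Library totals lay between 14921371 and 35723762 counts. For a count of 0, 3 counts were taken as an approximate upper 95% limit that covers counting error only. At these totals 3 counts stand for 0.0894 to 0.186 CPM (counts per 1000000 counts, scaled between libraries by TMM). TYMS, the targeted gene, read 90.3 to 101 CPM over the 6 libraries labelled control, 20.3 to 21.4 CPM in the lone knockout and 10.7 to 11.4 CPM in the co-cultured knockout, so the groups labelled knockout were lower in all 6 libraries. Other genes separated the labels further. CDKN2A and MTAP, neighbours on chromosome 9 in a locus that A549 is known to lack, stood at 54.7 to 116 and 43.8 to 79.5 CPM in the 6 libraries labelled control, against its label as A549, and at no more than 0.119 and 0.647 CPM in the 6 labelled knockout. MAGEB2 stood at 119 to 170 CPM in the former and had 0 counts in every one of the latter. The guide against TYMS and any other difference between the cells labelled control and knockout therefore cannot be told apart, and this holds for each comparison of knockout with control below. The fold change between the knockout groups compares no control library, but its test takes the spread from all 12 libraries, so that some calls there were lost when a control library was left out.

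Markers of other cells were low beside those of A549. The 7 leukocyte markers summed to between 0.896 and 6.23 CPM per library and the 4 endothelial markers to between 0.0847 and 2.73 CPM. The 5 fibroblast markers summed to 16.5 to 19.9 CPM in the lone control and 10.2 to 15.5 CPM in the co-cultured control, against 22.0 to 24.3 CPM in the lone knockout and 12.8 to 16.4 CPM in the co-cultured knockout, with 4 of the 5 under 1 CPM in each group and COL1A1 making up most of the sum. Their part in the results was not tested. In comparison, 7 markers chosen for A549 summed to between 11068 and 16889 CPM. PTPRC, the general leukocyte antigen, is among the leukocyte markers, of which 6 or 7 were under 1 CPM in each group. One marker chosen for A549, EPCAM, stood at 94.4 to 119 CPM in the libraries labelled control and at 0.149 to 0.913 CPM in those labelled knockout. KRT8 (5413 to 9110 against 2364 to 4180 CPM) and KRT19 (1190 to 2142 against 215 to 546) were also higher under the control label. AKR1C1 (85.2 to 135 against 348 to 782) and AKR1B10 (493 to 733 against 1897 to 2508) were lower there. ALDH1A1 was lower as well (1044 to 1778 against 2102 to 4596), and KRT18 overlapped. The similar sums thus do not show the same profile under both labels. Libraries also differed along the GC content of transcripts, with rank correlations across genes of their deviations from the group mean between -0.757 and 0.736, most extreme in replicates 3 and 2 of the co-cultured knockout. The log2 fold changes carried this trend (rank correlation with GC across genes -0.39 for knockout against control alone and 0.44 for co-cultured against lone knockout). A value with GC offsets, which remove the trend within each library, is given below for each member and named gene where it ends a call, makes one, or moves a called value by more than 1.5 times.

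The members differed widely in level. Per kilobase of exon and in the lone control, IRF3 was highest (50.1 ± 12.3 CPM per kilobase, SD, n = 3), followed by IKBKE (7.46 ± 1.80), STING1 (4.45 ± 0.806), CGAS (1.57 ± 0.321), TBK1 (0.882 ± 0.340), ENPP1 (0.368 ± 0.134) and IFI16 (0.167 ± 0.0835). Of the neighbours in this order only TBK1 and ENPP1 overlapped between libraries. In the lone knockout IRF3 (26.1 ± 4.06), IKBKE (5.80 ± 0.713), CGAS (2.16 ± 0.334) and TBK1 (1.49 ± 0.488) kept the upper ranks, with CGAS and TBK1 overlapping, and STING1 (0.0431 ± 0.0187) was the lowest of the 7. In the co-cultured knockout STING1 (0.150 ± 0.0760) and ENPP1 (0.148 ± 0.0567) overlapped at the low end, as did TBK1 (1.05 ± 0.913) and IFI16 (0.743 ± 0.475).

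**Figure D1:**
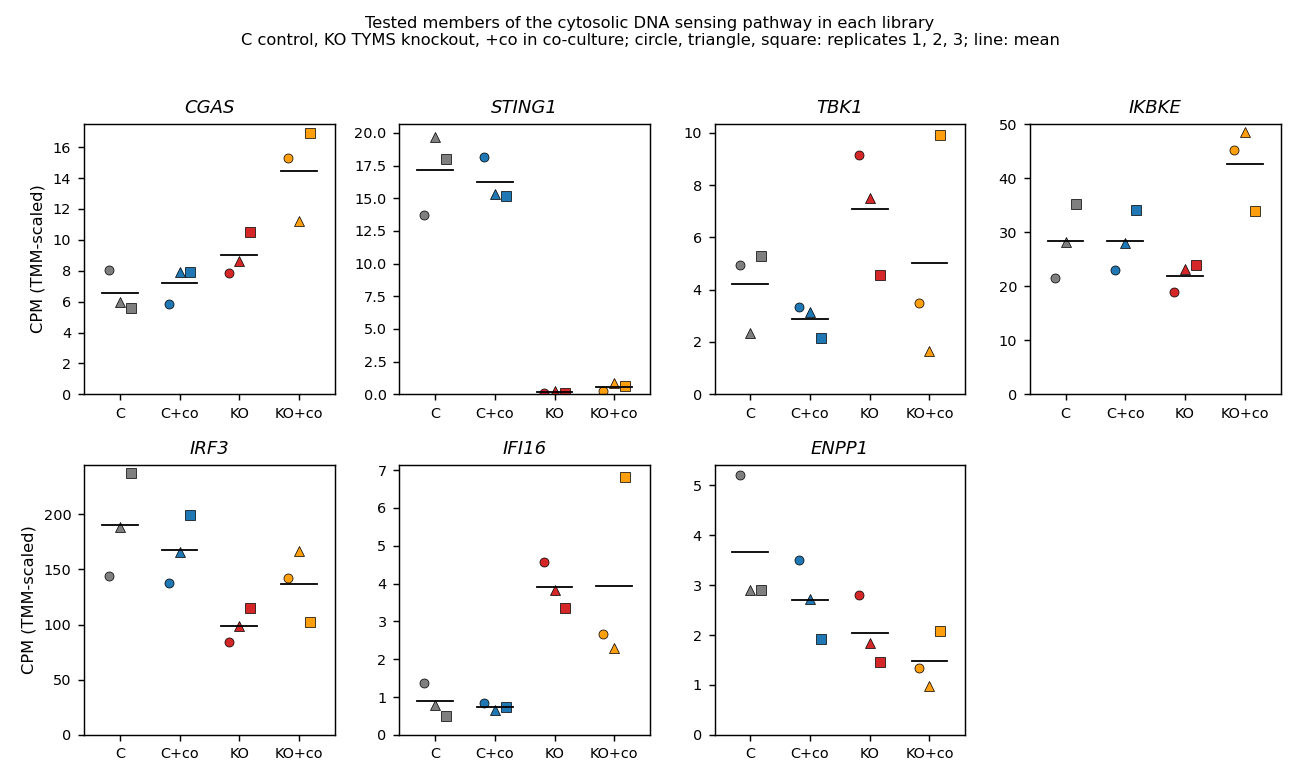
Level of each tested member in CPM (TMM-scaled, linear axis from 0), with replicates 1 to 3 as circle, triangle and square and the group mean as a line. STING1 lies between 13.7 and 19.7 CPM in the 6 libraries labelled control and below 0.84 CPM in the 6 labelled knockout, while CGAS is highest in the co-cultured knockout at 11.2 to 16.9 CPM.

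Among the 7 tested members, 3 were called between the lone knockout and the lone control at an adjusted p under 0.05 in edgeR, 1 of them higher (IFI16) and 2 lower (STING1, IRF3). In this comparison 56.6% of all genes tested were called, so a share of this size is near the background. Between the co-cultured and the lone knockout 2 members were called, STING1 and IKBKE, both higher, where 11.4% of all genes tested were called. Between the knockout and the control in co-culture 4 were called, where 49.4% of all genes were: CGAS, IFI16 and IKBKE higher and STING1 lower. The median log2 fold change of the 7 was -0.37, 0.47 and 0.59 in these comparisons, beside 0.09, 0.01 and -0.02 over all genes tested. The first and second comparison share the lone knockout libraries. By the values themselves, 4 of the 7 did not overlap between the lone groups (IFI16 higher; STING1, IRF3 and ENPP1 lower), beside 65.2% of all genes. In co-culture 3 did not (CGAS and IFI16 higher, STING1 lower), beside 55.4%, and between the knockout groups 3 did not (CGAS, STING1 and IKBKE, all higher), beside 31.5%.

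STING1 (ENSG00000184584; GRCh38 chromosome 5, 139475534 to 139482935, minus strand) encodes the adaptor on which cGAMP acts, and it showed the largest difference of the members. In the lone control the libraries read 13.7, 19.7 and 18.04 CPM, and in the co-cultured control 18.2, 15.3 and 15.2 CPM. The lone knockout libraries held 3, 5 and 2 counts, or 0.127, 0.249 and 0.122 CPM, and the co-cultured knockout libraries 6, 28 and 17 counts, or 0.259, 0.835 and 0.634 CPM. Every library labelled knockout lay far below every library labelled control, and the lone and co-cultured knockout did not overlap. Knockout against control gave a log2 fold change for STING1 of -6.64 between the lone groups (SE 0.41, edgeR adjusted p = 4.3e-08). Between the co-cultured groups it was -4.76 (SE 0.34, edgeR adjusted p = 1.79e-07). From the summed counts, the lone control held 103 times the STING1 signal of the lone knockout, with an exact 95% interval from 56.0 to 216 that covers counting error only.

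In the co-cultured knockout STING1 was higher than in the lone knockout by 1.80 (SE 0.47, edgeR adjusted p = 0.0309). The summed counts were 51 against 10, a ratio of 3.67 with an exact 95% counting interval from 1.84 to 8.11, and the level stayed 26.2 times below that of the co-cultured control (interval 19.8 to 35.4). Over the alternatives for this gene, the call was lost without replicate 1 (adjusted p = 0.138), 2 (0.0552) or 3 (0.0835) of the lone knockout and without replicate 2 of the co-cultured knockout (0.14), and the filter removed STING1 from a fit of the knockout libraries alone. Genes that mark the libraries labelled control stayed at or near 0 in the co-cultured knockout. MAGEB2 and GTSF1 had 0 counts in all 3 libraries, and CDKN2A had 0, 4 and 0. MTAP had 7, 21 and 13 counts, beside 13, 13 and 9 in the lone knockout. The partner named is parental A549, of which no library was analysed. These genes therefore cannot show whether RNA of partner cells was present, and its part in the STING1 values was not tested. The interaction (the change with co-culture in knockout cells less that in control cells) was 1.88 (SE 0.55, edgeR adjusted p = 0.115), and it passed without replicate 3 of the co-cultured knockout (adjusted p = 0.0384).

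CGAS (ENSG00000164430; chromosome 6, 73413515 to 73452276, minus strand), the gene of the DNA sensor cGAS, read 8.06, 5.97 and 5.57 CPM in the lone control, with 5.82, 7.92 and 7.91 CPM in the co-cultured control, and 7.83, 8.61 and 10.5 CPM in the lone knockout, with 15.3, 11.2 and 16.9 CPM in the co-cultured knockout. All 3 co-cultured knockout libraries were above all 9 others, whereas the lone knockout and lone control overlapped. Against the co-cultured control, CGAS rose in the co-cultured knockout by 1.0 (SE 0.23, edgeR adjusted p = 0.00294), a call that no alternative ended. Against the lone knockout the difference was 0.69 (SE 0.23, edgeR adjusted p = 0.0696), which did not pass, although it passed with RLE size factors (adjusted p = 0.0409), with DESeq2 (0.00879) and with GC offsets (1.04, edgeR adjusted p = 0.00143). Between the lone groups it was 0.46 (SE 0.23, edgeR adjusted p = 0.111), 0.02 with GC offsets, and 0.63 (adjusted p = 0.0499) without replicate 1 of the lone control. The interaction for CGAS was 0.54 (SE 0.33, edgeR adjusted p = 0.365) and passed with GC offsets (0.98, edgeR adjusted p = 0.0457). CGAS and STING1 thus stood in opposite order in the co-cultured groups, with CGAS higher and STING1 lower in the knockout.

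TBK1 (ENSG00000183735; chromosome 12, from 64451880, plus strand) encodes the kinase that STING recruits. It read 4.96, 2.34 and 5.30 CPM in the lone control, with 3.32, 3.14 and 2.16 CPM in the co-cultured control, and 9.14, 7.52 and 4.56 CPM in the lone knockout, with 3.49, 1.64 and 9.93 CPM in the co-cultured knockout. The co-cultured knockout spanned the whole range of the gene, and none of the comparisons called it: 0.75 (SE 0.53, edgeR adjusted p = 0.243) for knockout against control alone, 0.80 (SE 0.54, edgeR adjusted p = 0.234) in co-culture, and -0.50 (SE 0.52, edgeR adjusted p = 0.541) for co-cultured against lone knockout. The values that include the co-cultured knockout turned on single libraries of it. Without replicate 3 TBK1 stood at -1.49 for co-cultured against lone knockout (edgeR adjusted p = 0.0116), and the co-cultured comparison with the control turned to -0.18, whereas without replicate 2 that comparison was called at 1.21 (edgeR adjusted p = 0.0385). With GC offsets the 3 values were 0.13, 0.67 and -0.13, and none was called. The part of the GC trend in the spread of TBK1 was not tested beyond this.

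IKBKE (ENSG00000263528; chromosome 1, 206470476 to 206496889, plus strand) encodes IKKε, the inducible relative of TBK1. It read 21.6, 28.1 and 35.2 CPM in the lone control, with 23.0, 28.0 and 34.0 CPM in the co-cultured control and 18.9, 23.2 and 23.9 CPM in the lone knockout. In the co-cultured knockout it read 45.3, 48.5 and 33.8 CPM, above every lone knockout library. The rise over the lone knockout was 0.95 (SE 0.21, edgeR adjusted p = 0.015), 0.94 (edgeR adjusted p = 0.0376) in a fit of the knockout libraries alone. It was lost without replicate 1 (adjusted p = 0.0778) or 2 (0.0529) of the lone knockout and without replicate 1 (0.069) or 2 (0.052) of the co-cultured knockout, at 0.84 to 1.10 over all libraries left out in turn. Against the co-cultured control IKBKE was higher by 0.59 (SE 0.21, edgeR adjusted p = 0.0341), with overlapping groups. That call was lost when any of 6 libraries was left out (adjusted p from 0.0504 to 0.137): replicate 2 of the lone control, 1 or 2 of the co-cultured control, 3 of the lone knockout, and 1 or 2 of the co-cultured knockout. Between the lone groups the value was -0.37 (SE 0.21, edgeR adjusted p = 0.157), turned to 0.23 with GC offsets and was called at -0.53 (adjusted p = 0.0487) without replicate 1 of the lone control. The interaction for IKBKE was 0.95 (SE 0.30, edgeR adjusted p = 0.141). It passed with GC offsets (0.59, edgeR adjusted p = 0.0241) and without replicate 3 of the co-cultured knockout (1.10, adjusted p = 0.0153).

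IRF3 (ENSG00000126456; chromosome 19, from 49659569, minus strand) encodes the factor that TBK1 and IKKε activate by phosphorylation, a step that RNA does not show. It read 144, 189 and 237 CPM in the lone control, with 138, 166 and 199 CPM in the co-cultured control, and 83.9, 98.5 and 115 CPM in the lone knockout, with 142, 167 and 102 CPM in the co-cultured knockout. All 3 lone knockout libraries were below all 6 libraries labelled control. IRF3 fell in the lone knockout by 0.94 on the log2 scale (SE 0.22, edgeR adjusted p = 0.00322), and by 0.32 (edgeR adjusted p = 0.00675) with GC offsets. Of its exon bases, 19.3% overlap BCL2L12 on the opposite strand, which was also lower in the lone knockout (-1.38, SE 0.22, edgeR adjusted p = 0.000172, and -0.76 with GC offsets), and the counting strand is not given in the sources used here. In co-culture IRF3 differed by -0.29 (SE 0.22, edgeR adjusted p = 0.298). Between co-cultured and lone knockout it stood at 0.47 (SE 0.22, edgeR adjusted p = 0.179), and at 0.64 (adjusted p = 0.0299) without replicate 3 of the co-cultured knockout.

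IFI16 (ENSG00000163565; chromosome 1, from 158999968, plus strand) encodes a nuclear and cytosolic DNA sensor of the PYHIN family that can act with cGAS. Its level was low. The lone control read 1.36, 0.801 and 0.492 CPM and the co-cultured control 0.831, 0.651 and 0.734 CPM. It read 4.57, 3.83 and 3.35 CPM in the lone knockout, with 2.67, 2.30 and 6.83 CPM in the co-cultured knockout, so that the groups labelled knockout lay above those labelled control without overlap. Between the lone groups IFI16 rose by 2.16 (SE 0.45, edgeR adjusted p = 0.00136), and between the co-cultured groups by 2.41 (SE 0.45, edgeR adjusted p = 0.000616). Both calls remained in every alternative. The 7 leukocyte markers summed to 4.07 to 6.23 CPM in the lone control and 1.84 to 4.199 CPM in the co-cultured control, against 0.896 to 0.931 CPM in the lone knockout and 2.87 to 4.41 CPM in the co-cultured knockout. Most of each sum was CD14, a monocyte receptor, and the part of these markers in the IFI16 values was not tested. Co-cultured and lone knockout differed by -0.00 (SE 0.38, edgeR adjusted p = 1), with a sign that depended on the setting.

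ENPP1 (ENSG00000197594; chromosome 6, from 131808016, plus strand), the hydrolase of extracellular cGAMP, read 5.21, 2.90 and 2.90 CPM in the lone control, with 3.50, 2.72 and 1.92 CPM in the co-cultured control, and 2.79, 1.84 and 1.46 CPM in the lone knockout, with 1.34, 0.984 and 2.09 CPM in the co-cultured knockout. The lone groups did not overlap, but the values of -0.83 alone (SE 0.37, edgeR adjusted p = 0.0694) and -0.88 in co-culture (SE 0.37, edgeR adjusted p = 0.066) did not pass. With GC offsets both passed, at -1.35 (edgeR adjusted p = 0.000128) and -0.85 (edgeR adjusted p = 0.00532). The first also passed with RLE size factors (adjusted p = 0.04), with DESeq2 (0.0407) and in a fit of the lone groups alone (0.0467). Without a library the first passed in 3 settings, lacking replicate 1 of the lone knockout (0.0402) or replicate 2 (0.0483) or 3 (0.0382) of the co-cultured knockout. The second passed in 3 as well, lacking replicate 1 of the lone control (0.0493), replicate 3 of the co-cultured control (0.0424) or replicate 3 of the co-cultured knockout (0.0149).

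The other 3 members gave almost no counts. AIM2, the sensor that assembles an inflammasome on DNA, had 0 counts in all 12 libraries, and ZBP1, a sensor of Z-form nucleic acid that can start necroptosis, had 7 counts over all of them. TREX1, the main DNA exonuclease of the cytosol, also had 0 counts in all 12 libraries. Its zero differs from that of AIM2 in the annotation: 100% of its exon bases lie within exons of ATRIP on the same strand, and ATRIP read 15.2 to 20.9 CPM in every library. The TREX1 transcript and ATRIP cannot be told apart in these counts, so no statement on TREX1 is made. ATRIP itself differed by -0.13 (SE 0.15, edgeR adjusted p = 0.472) between the lone groups, and with GC offsets it reversed to 0.46 and was called (edgeR adjusted p = 0.00595).

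Co-culture of the cells labelled control left every member without a call. None of the 7 was called by edgeR or DESeq2, 0 had separate groups (7.39% of all genes did), and 0 had an unadjusted edgeR p under 0.05. Over all genes tested 0.0% were called by either tool, with 540 at an unadjusted p under 0.05 in edgeR and 552 in DESeq2. The differences of the members ranged from -0.55 for TBK1 (SE 0.55) to 0.15 for CGAS (SE 0.23). For the interaction, where 1.8% of all genes were called, edgeR called 0 of the 7. An unadjusted p under 0.05 was found for 2 of them, beside 3135 of all 16768 genes tested. DESeq2 called 1 member, STING1, at 2.02 (adjusted p = 0.0238).

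**Figure D2:**
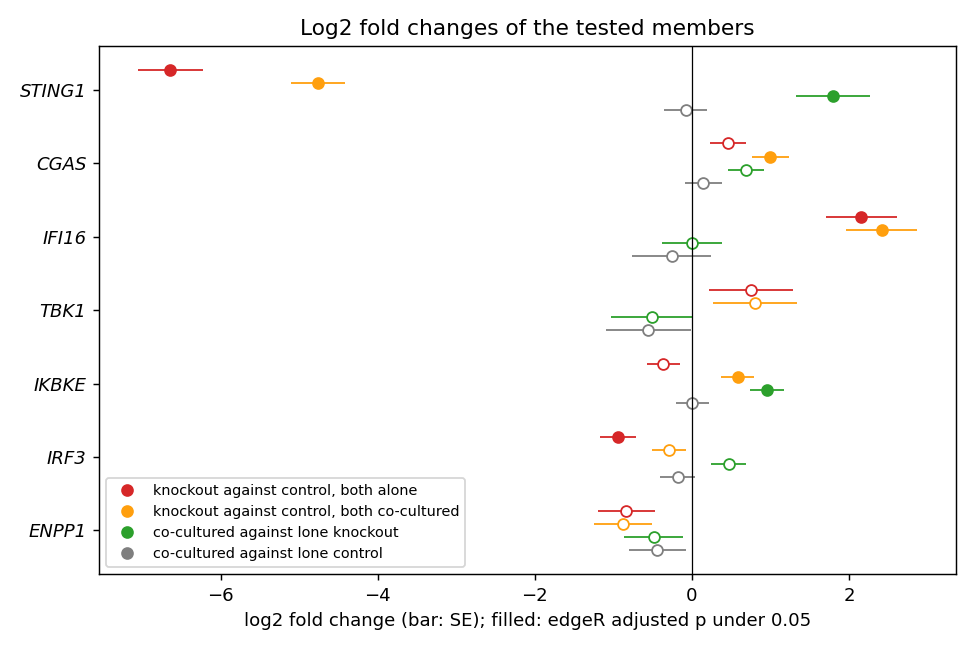
Log2 fold change (bars, SE) of the 7 tested members in 4 comparisons, with filled points for an edgeR adjusted p under 0.05. STING1 stands at -6.64 and -4.76 for knockout against control, IFI16 at 2.16 and 2.41, and all 7 grey points for co-culture of the control lie between -0.55 and 0.15.

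Levels were also correlated with those of CGAS and STING1 over the 12 libraries. Tested genes without a symbol were left out, as were symbols with certain prefixes, among them LOC, LINC and AL. Of the genes kept, those that followed CGAS most closely were C12orf75 (Pearson r of log2 CPM 0.956), UBE2B (0.952) and BMP2 (0.951). For STING1 they were TMSB15A (0.997), TLE2 (0.993) and SH3BP2 (0.993). TMSB15A, for example, averaged 7.37 CPM in the lone control, with 7.62 CPM in the co-cultured control, and 0.184 CPM in the lone knockout, with 0.466 CPM in the co-cultured knockout. These values describe genes that share the same 4 groups and libraries.

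Around the members, 8 lists held 102 further genes of the pathway, of which 85 were tested. Between the lone groups 56 of the 85 were called, 24 higher and 32 lower, beside 28.0% of all genes called higher and 28.6% lower. Between co-cultured and lone knockout 14 were called, 11 higher and 3 lower, beside 5.97% and 5.4% of all genes. That split was 13 to 1 with library size only and 12 to 6 with RLE size factors, while the 5 genes called in a fit of the knockout libraries alone were all higher. In co-culture, knockout against control gave 25 higher and 18 lower, beside 24.1% and 25.3%. The counts per list show where the calls fell.

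**Figure D3:**
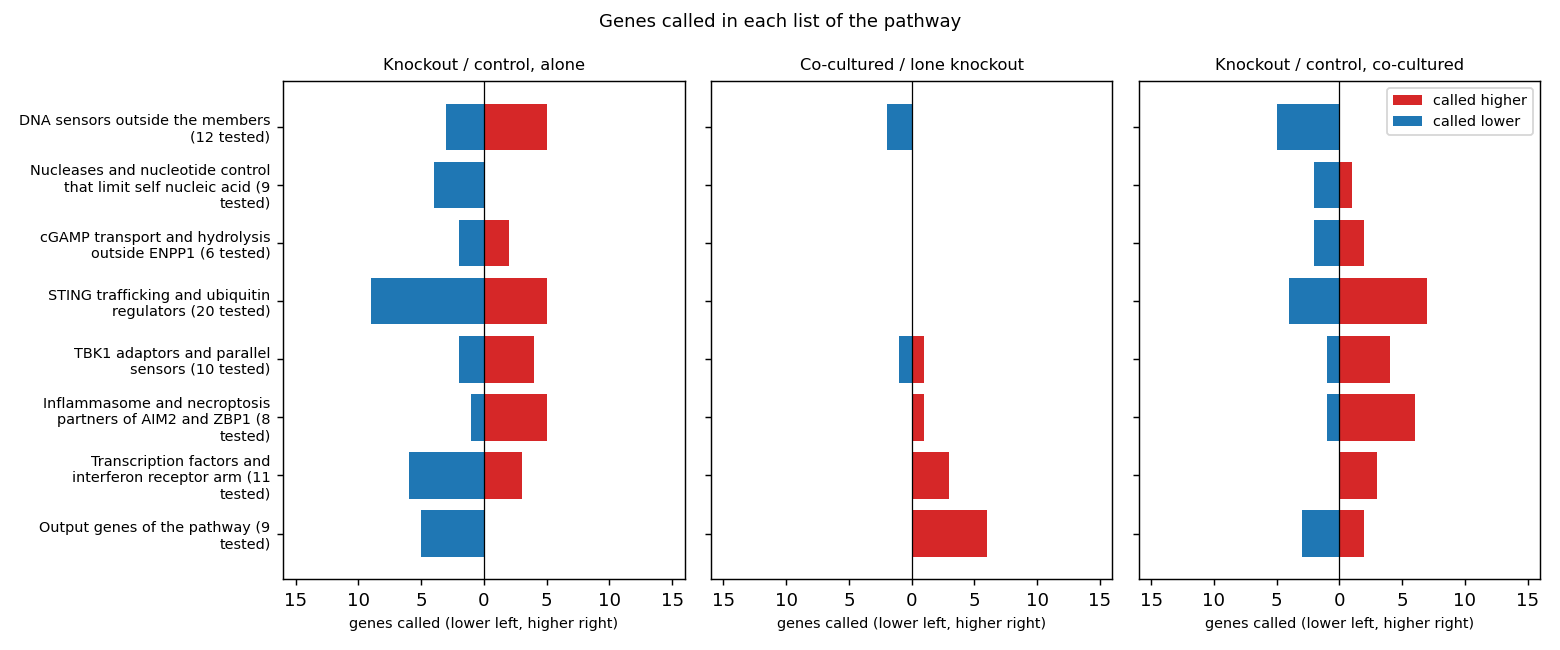
Number of genes called higher (right) and lower (left) in each of the 8 pathway lists, in 3 comparisons by edgeR at an adjusted p under 0.05. In the list of output genes 5 of 9 tested were called lower in the lone knockout and 6 were called higher in its co-culture, whereas the STING regulators had no call between co-cultured and lone knockout. Over all genes tested, 28.6% were called lower in the lone knockout and 5.97% higher in its co-culture.

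Of 12 further DNA sensors tested, 5 rose and 3 fell in the lone knockout, beside 28.0% and 28.6% of all genes. XRCC6, the Ku70 subunit that holds DNA ends, fell by 0.88 (SE 0.15, edgeR adjusted p = 0.000324), from 549.5, 702 and 606 CPM to 308, 355 and 343 CPM, and DDX41, a helicase linked to DNA sensing, fell by 0.66 (adjusted p = 0.00772) or 0.25 (0.0415) with GC offsets. LRRFIP1, a nucleic acid binding protein, rose by 1.52 (adjusted p = 0.00232). MRE11, a nuclease of DNA breaks, rose by 1.49 (adjusted p = 0.0134) or 0.87 (0.00753) with GC offsets, and its call was lost without replicate 2 of the lone control (0.051) or replicate 1 of the lone knockout (0.0603). In the co-cultured against the lone knockout 2 of the 12 were called, both lower, beside 5.4% of all genes called lower. PRKDC, the DNA-dependent protein kinase, read 355, 303 and 271 CPM in the lone and 85.1, 68.3 and 167 CPM in the co-cultured knockout, a fall of 1.54 (SE 0.30, edgeR adjusted p = 0.00842) that was lost in a fit of the knockout libraries alone (0.0533) and without replicate 1 of the co-cultured knockout (0.0571). LRRFIP1 fell there by 1.16 (adjusted p = 0.0451), a call lost with library size only (0.112), in a fit of the knockout libraries alone (0.119) and without any 1 of 9 libraries (0.0595 to 0.191). Those were replicate 2 of the lone control and all libraries of the other groups except replicate 3 of the co-cultured knockout.

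Among 9 tested nucleases and nucleotide-controlling genes, which keep self nucleic acid from accumulating, 4 fell and 0 rose in the lone knockout. Over all genes 28.6% fell and 28.0% rose. RNASET2, a lysosomal ribonuclease, fell by 0.89 (edgeR adjusted p = 0.00156). DNASE2, the lysosomal deoxyribonuclease, fell by 0.73 (adjusted p = 0.0035), or by 0.40 (0.00203) with GC offsets. BANF1, which coats DNA and competes with cGAS for it, fell by 0.75 (adjusted p = 0.00636), or by 0.45 (0.00222) with GC offsets. RNASEH2A, the catalytic subunit of ribonuclease H2, read 0.992, 1.66 and 2.19 CPM in the lone control against 0.550, 0.498 and 0.669 CPM in the lone knockout, a fall of 1.503 (adjusted p = 0.00819). The lone knockout values rest on 13, 10 and 11 counts. Of its exon bases, 30.8% lie within exons of THSD8 on the same strand, so part of the RNASEH2A signal may be missing from these counts. SAMHD1, which breaks down deoxynucleotides, was not called alone (-0.37, adjusted p = 0.179, but -0.78 and 9.88e-05 with GC offsets) and was called in co-culture against the control (-1.09, SE 0.23, adjusted p = 0.00149). No gene of this list was called between co-cultured and lone knockout, beside 11.4% of all genes. PLD3, a lysosomal exonuclease, stood there at 0.54 (adjusted p = 0.124) and at 0.29 (0.00683) with GC offsets. In that comparison 2 of the 9 had an unadjusted p under 0.05, beside 5053 of all 16768 genes tested.

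The transporters of cGAMP moved in both directions: of 6 tested, 2 rose and 2 fell in the lone knockout. Over all genes 28.0% rose and 28.6% fell. ABCC1, an exporter of cGAMP, rose by 1.37 (SE 0.11, edgeR adjusted p = 5.2e-07), from 189, 177 and 181 CPM to 472, 481 and 459 CPM. SLC19A1, the reduced folate carrier that also imports cGAMP, fell by 1.59 (SE 0.20, edgeR adjusted p = 2.86e-05), from 117, 148 and 171 CPM to 41.3, 49.6 and 53.9 CPM, and by 0.61 with GC offsets (edgeR adjusted p = 2.69e-06). Subunits of the volume-regulated channel that passes cGAMP differed in direction. LRRC8E fell by 1.36 (adjusted p = 0.000208), or 0.87 (0.00376) with GC offsets. LRRC8C rose by 1.20 (adjusted p = 0.026), or 0.63 (0.0135) with GC offsets, a call lost without replicate 2 (0.0933) or 3 (0.105) of the lone control or replicate 1 of the lone knockout (0.0925). Between co-cultured and lone knockout none of the 6 was called by edgeR, beside 11.4% of all genes. An unadjusted p under 0.05 was found for 3 of them, beside 5053 of all 16768 genes tested. DESeq2 called LRRC8E at 0.71 (adjusted p = 0.0415) and LRRC8C at -1.25 (0.0108). LRRC8C, at -1.28 in edgeR (adjusted p = 0.0626), also passed with RLE size factors (0.0429), with GC offsets (-0.81, 0.00752) and without replicate 3 of the co-cultured knockout (-1.92, 0.00108).

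All 20 regulators of STING trafficking and ubiquitination were tested. In the lone knockout 5 rose and 9 fell, beside 28.0% and 28.6% of all genes. NPC1, a lysosomal cholesterol transporter that draws STING to lysosomes, rose by 2.39 (SE 0.12, edgeR adjusted p = 5.94e-09), from 46.2, 39.6 and 42.5 CPM to 232, 224 and 214 CPM. ZDHHC7, a palmitoyltransferase of STING, rose by 0.78 (adjusted p = 6.01e-05), and TRIM56, a ubiquitin ligase, by 0.76 (adjusted p = 9.77e-05). RNF26, a ubiquitin ligase of the endoplasmic reticulum that stabilises STING, fell by 1.16 (adjusted p = 0.000226), or 0.53 (6.35e-05) with GC offsets. NPC1 kept a rise of 1.91 (edgeR adjusted p = 3.8e-08) in co-culture against the control. Between co-cultured and lone knockout none of the 20 was called by edgeR, beside 11.4% of all genes. An unadjusted p under 0.05 was found for 6 of them, beside 5053 of all 16768 genes tested, so this count is near the background. NLRX1, an inhibitor of STING signalling, stood there at 0.57 (adjusted p = 0.0649), at 0.64 in DESeq2 (0.0396) and at 0.31 with GC offsets (0.0134).

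Among 10 tested adaptors of TBK1 and parallel sensors, 4 rose and 2 fell in the lone knockout, beside 28.0% and 28.6% of all genes. OPTN, a TBK1-binding autophagy receptor, rose by 1.58 (SE 0.18, edgeR adjusted p = 9.25e-06), and TRAF3, a ligase upstream of TBK1, by 0.72 (adjusted p = 0.000432). TICAM1, the TLR3 adaptor TRIF, fell by 1.96 (SE 0.18, edgeR adjusted p = 1.68e-06), from 41.0, 57.7 and 61.9 CPM to 12.4, 14.4 and 14.3 CPM, and by 1.06 with GC offsets (2.56e-06). AZI2, another TBK1 adaptor, rose by 0.98 (adjusted p = 0.00621), a call lost with GC offsets (0.43, 0.0612). Of its exon bases, 55.4% overlap CMC1 on the opposite strand. In the co-cultured against the lone knockout TRAF3 fell by 0.53 (adjusted p = 0.0222) and TICAM1 rose by 0.64 (adjusted p = 0.0395), both opposite in sign to the lone comparison, which shares the lone knockout libraries. With GC offsets TICAM1 stood there at 0.39 (adjusted p = 0.0266). TRAF3 lost its call without any 1 of the lone knockout libraries or without replicate 1 or 2 of the co-cultured knockout (0.0519 to 0.0873), with library size only (0.0626) and in a fit of the knockout libraries alone (0.0554). TICAM1 lost it in that fit (0.101) and without any 1 of 9 libraries (0.0505 to 0.161), which are replicate 2 of the lone control and all libraries of the other groups except replicate 3 of the co-cultured knockout.

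Of 8 tested partners of AIM2 and ZBP1 in inflammasomes and necroptosis, 5 rose and 1 fell in the lone knockout. Over all genes 28.0% rose and 28.6% fell. IL1B, the interleukin that caspase-1 matures, read 0.124, 0.0616 and 0.383 CPM in the lone control against 1.23, 0.747 and 1.34 CPM in the lone knockout, with 13.5, 14.0 and 14.6 CPM in the co-cultured knockout. It rose by 2.46 (SE 0.47, edgeR adjusted p = 0.000701) in the lone knockout and by a further 3.66 (SE 0.34, edgeR adjusted p = 5.94e-05) in co-culture, where it was the single gene of the list called by edgeR with TMM scaling. MLKL, the executor of necroptosis, rose by 0.70 (adjusted p = 0.00615), or 0.43 (0.00945) with GC offsets. CASP8 rose by 0.54 (adjusted p = 0.00826), a call lost with GC offsets (0.04, 0.818) and without replicate 3 of the lone control (0.0543). Between co-cultured and lone knockout CASP8 was at 0.45 (adjusted p = 0.0668) and passed with GC offsets (0.89, 0.00015), RLE size factors (0.0327) and DESeq2 (0.00408). GSDMD, the pore-forming target of inflammasome caspases, fell by 1.92 (SE 0.23, edgeR adjusted p = 1.79e-05), from 132, 166 and 224 CPM to 40.6, 45.6 and 51.8 CPM, and by 0.89 with GC offsets (9.16e-08).

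The 11 transcription factors and genes of the interferon receptor arm were all tested. In the lone knockout 3 rose and 6 fell, beside 28.0% and 28.6% of all genes. JAK1, a kinase of interferon receptor signalling, rose by 1.88 (edgeR adjusted p = 4.05e-05). IRF7, the interferon-inducible relative of IRF3, fell by 1.72 (SE 0.24, edgeR adjusted p = 5.79e-05), or by 0.59 (0.000191) with GC offsets. TYK2, another receptor kinase, fell by 0.87 (adjusted p = 0.00109), a call lost with GC offsets (-0.08, 0.434). In the co-cultured against the lone knockout 3 of the 11 rose and 0 fell, beside 5.97% and 5.4% of all genes. IRF1 read 29.4, 38.4 and 36.4 CPM in the lone and 69.5, 77.1 and 54.5 CPM in the co-cultured knockout, a rise of 0.95 (SE 0.16, edgeR adjusted p = 0.00351). IRF7 rose there by 1.09 (SE 0.24, edgeR adjusted p = 0.0133), and lost this call in a fit of the knockout libraries alone (0.0607) and without replicate 1 (0.0718) or 2 (0.0601) of the lone knockout or replicate 1 of the co-cultured knockout (0.0625).

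The outputs of the pathway start with the interferons. IFNB1, the type I interferon gene that IRF3 switches on, had 0 counts in all 12 libraries, IFNL1 had 11 counts in total and CXCL10 had 4, so none of these was tested. At this depth the approximate upper 95% counting limit for a count of 0 is at most 0.186 CPM of IFNB1 in any library. Interferon-stimulated genes were measurable. Their promoters are shown upstream of the start because the motif bound by interferon-activated factors lies there, in the RefSeq sequence of GRCh38.p14 on the plus strand, 5′ to 3′, with each match to GAAANNGAAA on either strand in capitals.
ISG15 at chr1:1013247-1013496: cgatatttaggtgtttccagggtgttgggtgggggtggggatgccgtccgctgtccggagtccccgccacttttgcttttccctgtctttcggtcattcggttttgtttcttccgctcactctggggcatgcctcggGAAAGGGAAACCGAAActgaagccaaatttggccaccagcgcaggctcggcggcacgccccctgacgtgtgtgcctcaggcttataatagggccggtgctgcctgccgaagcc
IFIT1 at chr10:89392373-89392622: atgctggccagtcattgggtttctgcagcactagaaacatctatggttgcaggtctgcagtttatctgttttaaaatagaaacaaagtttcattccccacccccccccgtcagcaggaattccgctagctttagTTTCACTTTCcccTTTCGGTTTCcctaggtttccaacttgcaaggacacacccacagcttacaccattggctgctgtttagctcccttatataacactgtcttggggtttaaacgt
IFIT3 at chr10:89327747-89327996: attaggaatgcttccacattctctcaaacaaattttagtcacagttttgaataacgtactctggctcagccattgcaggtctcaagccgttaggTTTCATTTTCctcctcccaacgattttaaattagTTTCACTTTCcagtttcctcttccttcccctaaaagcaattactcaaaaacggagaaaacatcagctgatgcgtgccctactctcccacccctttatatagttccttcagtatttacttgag

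Each of these windows of 250 bases holds 2 matches, which overlap in ISG15. The same letters stand in 3.02% of 35116 promoter windows of this length. Counted by symbol, they stand in 3.71% of 27305 genes and in 11 of the 13 output genes matched. Of the 10 members 6 were matched by symbol, and 1 of these, AIM2, holds the motif. A match is a description of letters and not a measured binding site.

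Of 9 output genes tested, 5 fell and 0 rose in the lone knockout, beside 28.6% and 28.0% of all genes. Their median was -1.76 on the log2 scale, beside 0.09 over all genes tested. ISG15, a ubiquitin-like modifier, read 144, 239 and 266 CPM in the lone control against 14.1, 19.6 and 20.9 CPM in the lone knockout. IFIT1, which binds foreign RNA, read 8.68, 7.27 and 6.78 CPM in the lone control against 1.14, 1.39 and 1.34 CPM in the lone knockout. No library overlapped between these groups for either gene. IFIT1 fell by 2.55 (SE 0.28, edgeR adjusted p = 6.81e-06), ISG15 by 3.58 (adjusted p = 5e-07), OASL by 2.83 (adjusted p = 1.49e-06), the antiviral GTPase gene MX1 by 1.76 (adjusted p = 4.22e-05) and the chemokine gene CCL5 by 1.84 (adjusted p = 0.0219). The CCL5 value rests on few counts, 11, 12 and 27 in the lone control against 7, 1 and 8 in the lone knockout. CCL5 lost its call without replicate 3 of the lone control (0.111) or replicate 1 (0.0537) or 2 (0.0766) of the lone knockout. IFIT3 was not called: it read 1.12, 1.48 and 0.492 CPM in the lone control against 2.88, 2.04 and 1.52 CPM in the lone knockout (1.08, SE 0.51, edgeR adjusted p = 0.0832). It was called higher in a fit of the lone groups alone (adjusted p = 0.0331) and without replicate 2 (0.0451) or 3 (0.0229) of the co-cultured knockout. Its promoter holds the motif, as those of ISG15 and IFIT1 do.

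In co-culture of the knockout 6 of the 9 rose over the lone knockout and 0 fell, beside 5.97% and 5.4% of all genes. Their median was 1.02, beside 0.01 over all genes tested. ISG15 read 36.4, 42.7 and 23.9 CPM there (0.92, SE 0.27, edgeR adjusted p = 0.0446) and IFIT1 2.46, 1.79 and 3.62 CPM (1.02, SE 0.28, edgeR adjusted p = 0.035). OAS1, a sensor enzyme of double-stranded RNA, read 23.8, 25.8 and 22.4 CPM in the lone and 58.6, 65.3 and 54.1 CPM in the co-cultured knockout, a rise of 1.31 (SE 0.15, edgeR adjusted p = 0.000266). OASL rose by 1.62 (adjusted p = 0.00202), MX1 by 1.16 (adjusted p = 0.00954) and CCL5 by 2.50 (adjusted p = 0.017). For CCL5 this rests on 26, 60 and 46 counts in the co-cultured knockout, beside 7, 1 and 8 in the lone knockout. In a fit of the knockout libraries alone 3 of these 6 calls were left, and 2 to 6 of the 9 genes were called with a library left out, fewest without replicate 1 of the lone knockout. ISG15 lost its call without any 1 of 9 libraries (0.0516 to 0.181) and IFIT1 without any 1 of 7 (0.0513 to 0.145), with all 3 lone knockout libraries in both sets, and IFIT1 also lost it with library size only (0.0825). MX1 lost its call without replicate 1 of the lone (0.0559) or of the co-cultured knockout (0.0571), and CCL5 without replicate 1 (0.0726) or 2 (0.0695) of the lone knockout, while OASL and OAS1 kept theirs in each alternative run. These genes and IFIT3 stood at different levels relative to the co-cultured control: ISG15 (-2.31, adjusted p = 1.59e-05), IFIT1 (-1.26, 0.00126) and OASL (-0.94, 0.00509) were still lower, MX1 (-0.14, 0.632) was not called, and OAS1 (1.03, 9.97e-05) and IFIT3 (1.69, 0.0113) were higher. IFIT3 was not called without replicate 2 of the co-cultured control (0.0523). STING1 RNA in the same libraries was at 0.259 to 0.835 CPM, and a link between it and these outputs was not tested.

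**Figure D4:**
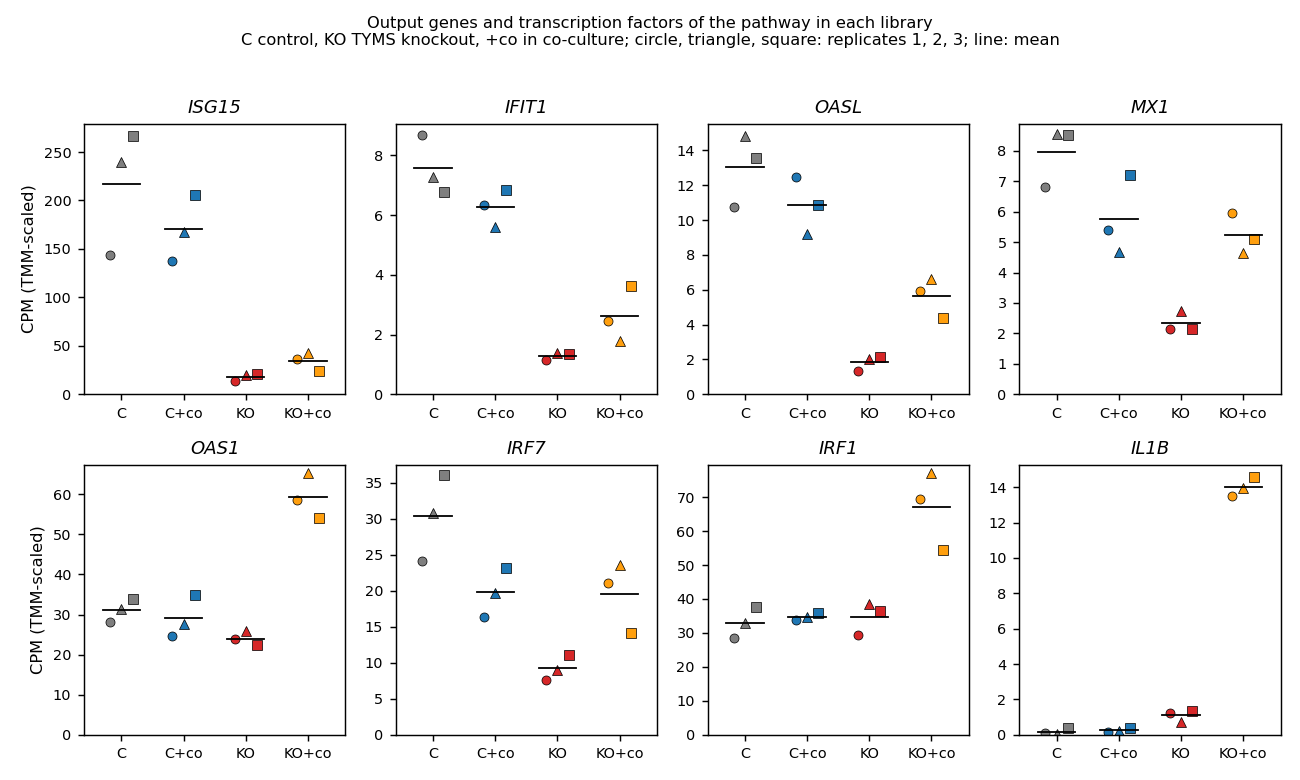
Level of 5 output genes (ISG15, IFIT1, OASL, MX1, OAS1), 2 transcription factors (IRF7, IRF1) and IL1B in CPM (TMM-scaled, linear axis from 0), with replicates as circle, triangle and square and the group mean as a line. ISG15 falls from 144 to 266 CPM in the lone control to 14.1 to 20.9 CPM in the lone knockout, and IL1B stands at 13.5 to 14.6 CPM in the co-cultured knockout.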

How the data were processed

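The authors deposited raw counts as 1 table of Ensembl genes by libraries. Per the submitters' processing notes, the tools were FastQC, STAR 2.7.9a, featureCounts, R 4.2.1 and DESeq2 1.36.0 on GRCh38 (hg38). Their settings, the annotation release and the counting strand are not given in the sources used here. The strand matters for further named genes whose exon bases overlap a gene on the opposite strand. Among them are LRRC8E (74.3%, AC010336.1), AZI2 (55.4%, CMC1), TYMS (39.1%, ENOSF1) and SLC19A1 (14.0%, COL18A1). Each column matched 1 sample by name, and positions came from GENCODE 29 on GRCh38.

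Counts were tested in R 4.3.3 with edgeR 4.0.16 (filterByExpr, TMM, robust quasi-likelihood F-test, all 12 libraries in a model of 4 group means). P-values were adjusted by Benjamini-Hochberg over the 16768 genes tested, in 5 comparisons, and called under 0.05. The biological coefficient of variation was 22.1%. The script was tested on simulated data with 200 genes changed 2 or 4 times and no GC trend. The changed genes were drawn only from those above a floor on the mean count, and every gene had the same spread. It called 57% of the 2-fold and 100% of the 4-fold changes, and 3.68% of calls were false. An uncalled 2-fold difference thus does not show that a gene is unchanged. These data have a GC trend and many more changed genes, so the rates may differ here. For genes of low counts the share recovered was not tested. Replicates differed beyond counting noise (chi-square 7.96 to 117 per gene). Alternatives were RLE factors, library size only, DESeq2 1.42.0, a filter of 10 counts in total, a fit of the groups compared, GC offsets, a replicate block, both together, and each library left out. The members, lists and naming rule were chosen with earlier results of these data known. From each list the rule named the 4 genes with the smallest p in knockout against control alone and the 2 in co-cultured against lone knockout. It also named IFNB1, IFNL1, CXCL10, CCL5, ISG15 and IFIT1. One gene that the rule named is not reported here. IFIT3 and the genes that check the labels (CDKN2A, MTAP, MAGEB2, GTSF1, EPCAM) were chosen after their values were seen. The alternatives for named genes other than members were added after seeing the data.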

Additional observations from a re-analysis of the deposited data

Results flagged for a closer look

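The effect of co-culture differed between knockout and control cells, by the interaction term of edgeR, for 5 of the 85 tested pathway genes and for none of the members, beside 1.8% of all genes tested. The difference on the log2 scale was 3.24 for IL1B (SE 0.70, edgeR adjusted p = 0.0362), 1.89 for OASL (SE 0.35, edgeR adjusted p = 0.0146), 1.70 for IRF7 (SE 0.33, edgeR adjusted p = 0.0204), 1.62 for MX1 (SE 0.33, edgeR adjusted p = 0.024) and 1.41 for OAS1 (SE 0.22, edgeR adjusted p = 0.00493). In each case the rise was in the knockout, while the co-cultured and lone control were at 0.42 for IL1B, -0.27 for OASL, -0.62 for IRF7, -0.47 for MX1 and -0.10 for OAS1, none of them called.

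OAS1 kept its call in each alternative run. OASL lost it without replicate 2 of the lone control (0.0519), replicate 2 of the co-cultured control (0.0636) or replicate 1 of the co-cultured knockout (0.0508). IL1B lost it in 8 of the 12 settings that leave out a library, furthest without replicate 3 of the lone control (2.20, adjusted p = 0.425), the library of that group with the most counts of IL1B (7, beside 2 and 1). IRF7 lost it in 7 of them (adjusted p from 0.0603 to 0.072) and MX1 in 8 (0.0536 to 0.0922). IRF7 also moved to 1.11 (edgeR adjusted p = 0.000354) with GC offsets.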

How the results depend on the processing

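The members' calls between co-cultured and lone knockout moved most: 2 became 1 with only the groups compared, where STING1 had no value, and 0 to 4 with a library left out. The interaction's 0 became 1 with DESeq2 and with the replicate block plus GC offsets, 2 with GC offsets, and 0 to 2 with a library left out. Leaving out a library gave 3 to 5 members called between the lone groups. Of the pathway genes, the 14 called between co-cultured and lone knockout became 24 with DESeq2, 5 with only the groups compared, 39 with GC offsets, 37 with the replicate block plus GC offsets and 5 to 36 with a library left out. The interaction's 5 became 10, 14 and 11 with DESeq2, GC offsets and the block plus GC offsets, and 1 to 28 with a library left out. Over all genes, 1907 calls became 3213, 664, 4878 and 4154 in those 4 settings, 1080 with the replicate block alone and 536 to 5680 with a library left out. The interaction's 301 became 893, 1442, 889, 179 and 119 to 3623. Without replicate 3 of the co-cultured knockout these counts were highest. The cause was not tested. Calls between knockout and control stayed within 1.5 times in every setting, apart from the 5 members without replicate 1 of the lone control. Values that changed sign were uncalled members, ATRIP and MX1. With GC offsets and with the block plus GC offsets they were STING1 between the control groups (0.00996 and 0.0181), IKBKE (0.23 and 0.23) and ATRIP (0.46 and 0.46) between the lone groups, IFI16 between the knockout groups (0.46 and 0.44) and ENPP1 in the interaction (0.50 and 0.53). ENPP1 between the knockout groups reached 0.0025 with the block plus GC offsets. With RLE factors and DESeq2, IKBKE between the control groups was -0.0239 and -0.0201, IFI16 between the knockout groups 0.025 and 0.0254, and ENPP1 in the interaction 0.0213 and 0.0186. IFI16 was 0.0143 with the filter of 10 counts. With library size only, TBK1 in the interaction was -0.0266 and ATRIP 0.041, and all genes between the lone groups shifted from a median of 0.09 to 0.24. With the replicate block TBK1 in the interaction was -0.26. With a library left out, the values that changed sign ran between the control groups from -0.22 to 0.0306 for STING1, -0.16 to 0.19 for IKBKE, -0.35 to 0.0071 for IRF3 and -0.56 to 0.19 for IFI16. They ran from -0.66 to 0.28 for IFI16 between the knockout groups, from -0.18 to 1.21 for TBK1 and -0.28 to 0.0252 for MX1 between the co-cultured groups, and in the interaction from -0.93 to 0.48 for TBK1, -0.40 to 0.56 for IFI16 and -0.39 to 0.26 for ENPP1. Over the 4 groups, deviations of same-numbered libraries correlated at -0.603 to 0.491. Of these correlations 7 of 18 were over 0.1, beside 14 of 36 for different numbers. Outside the co-cultured knockout they were 0.189 to 0.491 for replicates 1 and 3 and -0.0735 to -0.0242 for replicates 2. Different numbers gave -0.46 to 0.205 there. Replicate 3 of the co-cultured knockout correlated at 0.357 to 0.639 with replicate 1 of the other groups. Whether a number marks a shared batch was not tested. The replicate block left every member's call as it was, and ended those of LRRFIP1 (adjusted p = 0.0738), TICAM1 (0.0507) and IFIT1 (0.0649) between the knockout groups and of MX1 (0.066) in the interaction. Depth limits low genes, with as few as 2 counts of STING1 in a library.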
